A study of Mus musculus with 28 samples.

Results

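Dicer1 and the genes of the microRNA (miRNA) machinery were followed across mouse embryonic stem (ES) cells that lacked Dicer, had it, or carried a DICER1 transgene. The 10 genes were the nucleases Dicer1 and Drosha, the Drosha partner Dgcr8, the exporter Xpo5, the Dicer partners Tarbp2 and Prkra, and the Argonautes Ago1, Ago2, Ago3 and Ago4. Each was found by its gene symbol in the platform annotation, and where a gene had several probe sets, that with the highest mean value across the 28 arrays was taken. All 10 were on the array, among 19938 genes with a probe set of their own. Ago2 and Tarbp2 had 2 probe sets and the other 8 genes had 1. Of the 10 genes, 9 passed the filter on low values, which lay at a log2 expression value of 6.42, and Ago4 did not.

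The study profiled messenger RNA on Affymetrix Mouse Gene ST arrays to follow hotspot mutations of DICER1. Dicer-/- ES cells carried mutant DICER1 with the change D1709A (4 arrays), D1709N (2 arrays), E1705K (3 arrays), D1810Y (3 arrays) or E1813Q (2 arrays). The same Dicer-/- background was used for wild-type DICER1 (6 arrays) and for an eGFP vector (3 arrays). The Dicer-null line itself (3 arrays) and a Dicer wild-type line (2 arrays) were profiled without a transgene. The transgenes of D1709N, of E1813Q and of wild-type DICER1 arrays 5 and 6 were in pLD-puro-PGKnvA, and every other transgene was in pLD-puro-ENvA. All transgene groups and the Dicer-null line thus lacked endogenous Dicer, and the Dicer wild-type line was the sole group that had it. A single line is named per genotype, so other differences between the lines cannot be told apart from the loss of Dicer. The species of the transgene is not stated, and neither is whether the Dicer1 probe set reads the transgene or lies in the deleted part of the gene. The cells were kept in ES cell medium and harvested in log-phase growth, per the labels.

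In the nucleus, Drosha and its RNA-binding partner Dgcr8 cut a hairpin precursor out of a primary transcript, and Xpo5 carries it to the cytoplasm. There Dicer1, with Tarbp2 or Prkra at its side, cuts off the loop, and a strand of the resulting duplex is loaded into an Argonaute protein, which it guides to target messenger RNAs. Ago2 is the Argonaute that can slice a fully paired target. ES cells survive without Dicer but lack most miRNAs and differentiate poorly. The mutated residues belong to the metal-binding centre of the RNase IIIb domain of DICER1, which cuts the precursor strand that carries the 5p miRNA.

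Several of these genes bear features in sequence, which are given as background and were not tested against the results below. Ago3, Ago1 and Ago4 are consecutive protein-coding genes on chromosome 4 in the RefSeq annotation of GRCm38.p6, and Ago1 and Ago3 have separate promoters. The 300 bases around their starts are shown because Ago1 and Ago3 moved in the same direction in several comparisons, though not in all. From the Dicer-null line to the eGFP vector Ago1 changed by -0.30 and Ago3 by 0.18, and only the Ago1 change was called below. Their Pearson correlation over the 9 group means was 0.59. GC boxes (GGGCGG on either strand) and CCAAT boxes (CCAAT on either strand) are in capitals. The Ago1 window lies at chr4:126468582-126468881 on the minus strand, and the Ago3 window at chr4:126429493-126429792 on the minus strand (RefSeq, GRCm38.p6).
Ago1 promoter: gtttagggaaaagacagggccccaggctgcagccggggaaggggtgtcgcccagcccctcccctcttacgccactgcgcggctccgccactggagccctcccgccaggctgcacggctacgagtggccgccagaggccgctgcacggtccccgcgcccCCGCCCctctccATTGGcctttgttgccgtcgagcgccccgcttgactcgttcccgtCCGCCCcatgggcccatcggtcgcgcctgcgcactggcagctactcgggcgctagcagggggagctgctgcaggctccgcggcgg
Ago3 promoter: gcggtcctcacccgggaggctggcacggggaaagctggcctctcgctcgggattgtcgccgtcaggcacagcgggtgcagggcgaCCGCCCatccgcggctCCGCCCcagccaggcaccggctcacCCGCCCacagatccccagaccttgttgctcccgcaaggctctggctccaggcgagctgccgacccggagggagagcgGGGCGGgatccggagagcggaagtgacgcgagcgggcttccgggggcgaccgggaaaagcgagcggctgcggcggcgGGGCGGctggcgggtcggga
The Ago1 window held 2 GC boxes and 1 CCAAT box, and the Ago3 window held 5 GC boxes and no CCAAT box. Of 32851 RefSeq promoter windows, 35.7% held a GC box and 37.4% a CCAAT box, so both motifs are common in such windows. Their GC content was 73% and 74.7%. A promoter window was found for 9 of the 10 genes, and Ago1 had 2 windows, of which 1 is printed. Dgcr8 carries miRNA hairpins in its own transcript, and the Mir1306 hairpin, at chr16:18284239-18284317 on the minus strand, is shown because the Drosha and Dgcr8 proteins are known to cut the Dgcr8 transcript at such hairpins. Capitals mark the mature arms in the hairpin and the seed, bases 2 to 8, in each arm.
Mir1306 hairpin: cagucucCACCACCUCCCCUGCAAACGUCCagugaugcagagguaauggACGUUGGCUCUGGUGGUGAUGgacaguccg
miR-1306-5p: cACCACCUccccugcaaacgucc
miR-1306-3p: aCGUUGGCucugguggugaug
The seeds of the 5p and 3p arms differ, so they form separate seed groups. The annotation places 2 hairpins inside Dgcr8 and 1 inside Xpo5, and none inside the other 8 genes.

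The median log2 value of an array ranged from 7.14 to 7.27. Markers of ES cells were high, and 8 of 8 (among them Pou5f1, Sox2 and Nanog) read above 6.42 in every group, with list means between 11.80 and 12.26. Fibroblast markers read far lower, with list means between 6.63 and 7.24 and 5 or 6 of 8 genes above 6.42. Postn was the lowest of them in 7 groups. Col1a1 was the highest in every group, at 7.82 to 8.41, above the array medians. The values of arrays were tied by exact relations that were found after the data were examined. Of the 28 singular values of the table, 3 were at most 0.00233 and the next was 24.1. These relations divide the arrays into 4 sets, within each of which the deviations from group means sum to 0 within 2e-04. Set 1 held array 1 of the Dicer-null line, D1709A, E1705K, wild-type DICER1 and the Dicer wild-type line. Set 3 held the arrays numbered 4 (D1709A and wild-type DICER1), set 4 held the 6 PGKnvA arrays, and set 2 held the other 15. The means of wild-type DICER1 in both vectors were equal within 7.5e-05 for every probe set. The arrays of a set are therefore not independent, and p-values and counts of calls are approximate. A model term for the array set or the vector thus leaves the changes almost as they were and alters mainly their p-values. Nothing in the labels says that the arrays of a group came from separate cultures, so p-values reflect only how far these arrays differ, which may be technical spread.

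Changes below are differences of mean log2 expression values, and a gene is called where limma gave an adjusted p under 0.05 over the 13956 tested genes. Fewer cells of a type and less RNA per cell cannot be told apart in these bulk samples. Between the Dicer-null line and the Dicer wild-type line, 6 of the 9 tested genes were called, 4 higher and 2 lower, against 57.9% of all tested genes (30.7% higher and 27.2% lower). Between the eGFP vector and the Dicer-null line, 5 of 9 were called, 3 higher and 2 lower, against 47.6% (20.2% higher and 27.4% lower). With wild-type DICER1, none of the 9 was higher and 5 were lower than with the eGFP vector, against 30.8% and 28.7% of all tested genes (59.5% together). Against the Dicer wild-type line, wild-type DICER1 cells had 3 of 9 called, 1 higher and 2 lower, against 52.9% (28.1% higher and 24.8% lower). The mean of the 5 mutants differed from the eGFP vector in 2 of 9 genes, both lower, against 53.1% (29.3% higher and 23.8% lower). The mutants differed from wild-type DICER1 in 7 of 9 genes, 6 of them higher and 1 lower, against 60.1% (32.3% higher and 27.7% lower). Single mutants were also set against wild-type DICER1. D1709A had 2 genes called, both higher, against 45.8% of all tested genes (24.1% higher and 21.7% lower). D1709N had 3 higher and 1 lower, against 40.0% (21.5% and 18.5%). E1705K had 3 called, all higher, against 48.0% (27.3% higher and 20.7% lower). D1810Y had 5 higher and 1 lower, against 53.7% (28.5% and 25.2%), and E1813Q had 4 higher and 2 lower, against 40.6% (21.1% and 19.5%). Over all 9 groups together, 8 of 9 genes varied by the F-test, against 85.0% of all tested genes. Calls were thus frequent across the whole array, and a count among 9 genes was not tested against these shares. Comparisons with a group in common share its arrays.

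Dicer1, the targeted gene, read 9.31, 9.22 and 9.27 in the Dicer-null line, against 10.72 and 10.65 in the Dicer wild-type line (log2 expression values). All 3 Dicer-null arrays lay below both wild-type arrays, and the change was -1.42 (SE 0.0683, adjusted p = 3.52e-15), or 2.67-fold lower. The eGFP arrays read 9.45, 9.45 and 9.28, which overlapped the Dicer-null arrays (change 0.12, adjusted p = 0.103). That difference passed the threshold without eGFP array 3 (0.18, adjusted p = 0.0278). Wild-type DICER1 did not bring the reading up: its 6 arrays had a lowest value of 9.26, a median of 9.29 and a highest of 9.44, and the change from the eGFP vector was -0.08 (95% interval from -0.20 to 0.04, adjusted p = 0.227). Against the Dicer wild-type line the wild-type DICER1 arrays were 2.59-fold lower (-1.37, adjusted p = 5.16e-15).

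Among the mutants, Dicer1 was lowest in D1709N and E1813Q. D1709N read 8.97 and 8.84, and E1813Q read 8.97 and 9.01, against 9.30 and 9.32 on the wild-type DICER1 arrays in the same PGKnvA vector. The changes from wild-type DICER1 were -0.40 for D1709N (SE 0.0748, adjusted p = 0.000125) and -0.32 for E1813Q (adjusted p = 0.00133), and neither mutant overlapped wild-type DICER1. In the ENvA vector, D1709A read 9.25, 9.29, 9.24 and 9.08, E1705K read 9.24, 9.27 and 9.39, and D1810Y read 9.27, 9.27 and 9.30. None of these 3 mutants was called against wild-type DICER1, with changes of -0.09, -0.01 and -0.03 and adjusted p of 0.165 or more. The mean of the 5 mutants was lower than wild-type DICER1 (change -0.17, SE 0.0371, adjusted p = 0.000314) and lower than the eGFP vector (change -0.25, adjusted p = 0.000351). With the ENvA arrays alone the first of these was -0.04 (adjusted p = 0.447). In the order of group means, the Dicer wild-type line stood apart at the top (10.68), 6 groups from the eGFP vector (9.39) to D1709A (9.22) overlapped their neighbours, and E1813Q (8.99) and D1709N (8.91) lay apart at the bottom, narrowly so from each other.

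Ago1, an Argonaute that binds miRNAs without slicing, showed the largest range of group means after Dicer1 among the 10 genes, 1.22 on the log2 scale against 1.78 for Dicer1. It read 11.25, 11.34 and 11.23 in the Dicer-null line, against 10.08 and 10.03 in the Dicer wild-type line. The groups did not overlap, and Ago1 was 2.32-fold higher without Dicer (change 1.22, SE 0.0652, adjusted p = 2.73e-14). The eGFP arrays, at 10.99, 10.96 and 10.96, were all below the Dicer-null arrays (change -0.30, SE 0.0584, adjusted p = 0.000132).

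Ago1 was lower still with wild-type DICER1. Its 6 arrays had a lowest value of 10.01, a median of 10.21 and a highest of 10.25, all below the eGFP arrays, and the change was -0.80 (SE 0.0546, adjusted p = 4.04e-12), or 1.74-fold lower. This level was close to that of the Dicer wild-type line (change 0.12, 95% interval from -0.01 to 0.25, adjusted p = 0.104), although the difference passed the threshold without wild-type DICER1 array 4 (0.18, adjusted p = 0.00713). D1709A read 10.18, 10.19, 10.09 and 10.38, E1705K read 10.14, 10.18 and 10.13, and D1810Y read 10.33, 10.28 and 10.28. D1709N read 10.63 on both arrays, and E1813Q read 10.59 and 10.63. The last 2 mutants lay between the eGFP vector and the other transgene groups and overlapped neither, as the plot of Dicer1 and Ago1 by array shows.

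**Figure D1:**
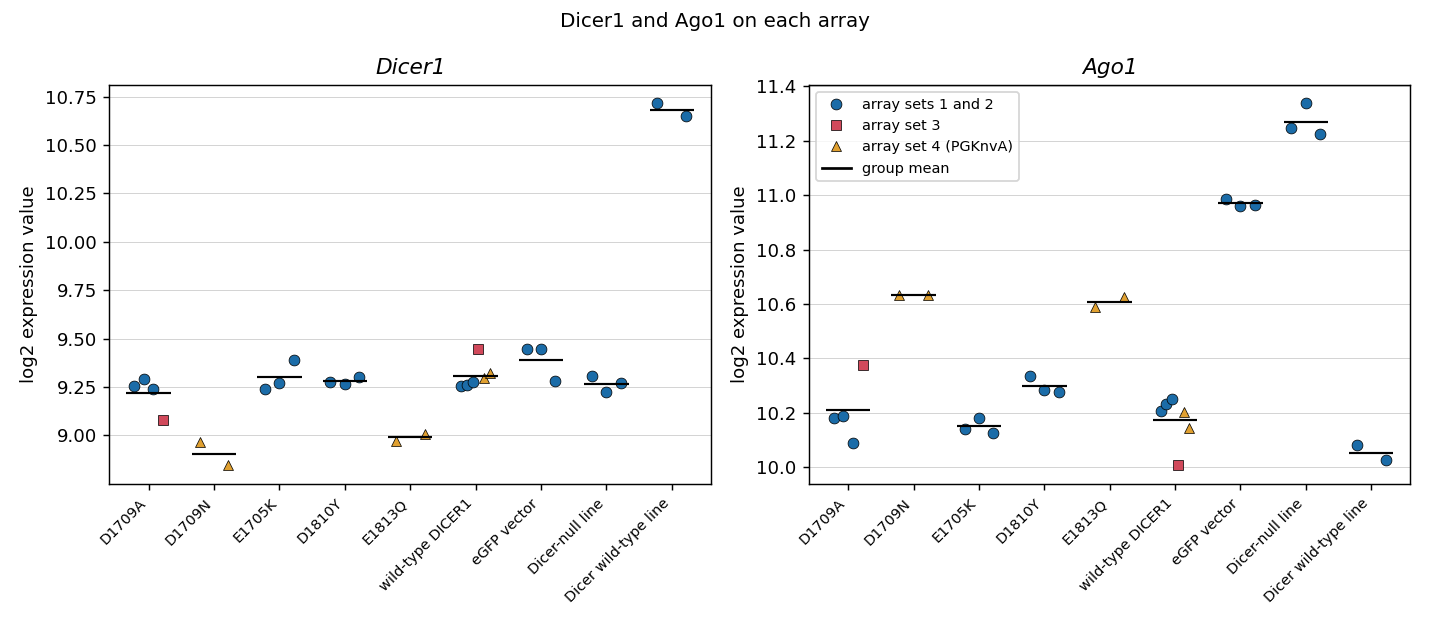
Log2 expression values (y axis) of Dicer1 (left) and Ago1 (right) on each of the 28 arrays, by group (x axis); points are arrays, marked by array set, and black bars are group means. Dicer1 stands apart at 10.68 in the Dicer wild-type line and is lowest in D1709N and E1813Q, in which Ago1 averages 10.63 and 10.61, against 10.17 with wild-type DICER1.

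Against wild-type DICER1, the Ago1 change was 0.46 for D1709N (SE 0.0715, adjusted p = 1.54e-05) and 0.43 for E1813Q (SE 0.0715, adjusted p = 2.91e-05). It was 0.03 for D1709A and -0.02 for E1705K, neither of which was called. D1810Y had 0.12 (adjusted p = 0.0588), which passed the threshold without wild-type DICER1 array 2 or array 3 (0.14 and 0.15). The mean of the 5 mutants was lower than the eGFP vector (-0.59, SE 0.0520, adjusted p = 5.92e-10) and higher than wild-type DICER1 (0.21, SE 0.0355, adjusted p = 1.94e-05). With the ENvA arrays alone the second of these was 0.04 (adjusted p = 0.425).

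Ago2, the slicing Argonaute, changed little in most comparisons but was high in the same pair of mutants. E1813Q read 11.86 on both arrays and D1709N 11.69 on both, against a lowest of 11.49, a median of 11.54 and a highest of 11.55 on the 6 wild-type DICER1 arrays. On the chosen probe set E1813Q was higher than every array of the other 8 groups. The changes were 0.34 for E1813Q (SE 0.0381, adjusted p = 1.48e-07) and 0.16 for D1709N (adjusted p = 0.0014). With the mean of both Ago2 probe sets the D1709N call was lost (0.11, adjusted p = 0.091). D1810Y read 11.49, 11.42 and 11.43 and was called lower (-0.08, adjusted p = 0.0232), a call lost without D1810Y array 2 or 3 or wild-type DICER1 array 1 or 3 (adjusted p between 0.0532 and 0.105) and with the array set as a block (adjusted p = 0.0532). D1709A and E1705K were not called, at 0.01 and -0.01. With the mean of both probe sets they were called lower (-0.13, adjusted p = 0.0075, and -0.10, adjusted p = 0.048).

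The Dicer-null line read 11.77, 11.79 and 11.77 for Ago2, against 11.62 and 11.72 in the Dicer wild-type line (change 0.10, adjusted p = 0.0128). That call was lost without array 1 of the Dicer wild-type line (0.06, adjusted p = 0.287). Ago2 was lower with the eGFP vector than in the Dicer-null line (-0.17, adjusted p = 5.49e-05) and lower with wild-type DICER1 than with the eGFP vector (-0.08, adjusted p = 0.0224). The second of these was lost without eGFP array 3 or wild-type DICER1 array 4 (-0.07 in both cases, adjusted p = 0.0687 and 0.0926) and with the array set as a block (adjusted p = 0.0508). Wild-type DICER1 was lower than the Dicer wild-type line (-0.15, adjusted p = 0.000532), and this was lost without array 2 of that line (-0.10, adjusted p = 0.0519). The mutants as a whole were higher than wild-type DICER1 by 0.08 (SE 0.0189, adjusted p = 0.000422). The direction turned with the ENvA and untransduced arrays alone (-0.03, adjusted p = 0.36) and with the mean of both Ago2 probe sets (-0.02, adjusted p = 0.59), and neither value was called.

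The second Ago2 probe set, which had the lower mean (10.09 over all arrays), differed in sign from the first in 3 of 9 comparisons. It gave a change of -0.15 between the Dicer-null and Dicer wild-type lines and 0.20 between wild-type DICER1 and the eGFP vector, opposite in sign to the first probe set in both. For D1709A against wild-type DICER1 it gave -0.26, against 0.01 on the first probe set. Both probe sets were lower with the eGFP vector than in the Dicer-null line (-0.63 on the second), lower with wild-type DICER1 than in the Dicer wild-type line (-0.58 on the second) and higher in E1813Q and D1709N than with wild-type DICER1, although by 0.03 and 0.07 on the second. Small changes of Ago2 are therefore uncertain in direction. The top rank of E1813Q was also not seen on the second probe set, where it averaged 10.13. D1709N (10.16), the Dicer-null line (10.53) and the Dicer wild-type line (10.68) averaged more there.

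Ago3, another Argonaute that binds miRNAs, was like Ago1 called higher in D1709N and E1813Q. It read 9.27 and 9.22 in D1709N and 9.26 and 9.23 in E1813Q, against 8.90 and 8.96 on the PGKnvA arrays of wild-type DICER1. The changes were 0.32 for D1709N (SE 0.0986, adjusted p = 0.0115) and 0.32 for E1813Q (adjusted p = 0.012). The calls were lost without array 1 of the mutant or wild-type DICER1 array 5 (adjusted p = 0.0716 and 0.0788 for D1709N and 0.0607 and 0.0816 for E1813Q). D1709A (0.09), E1705K (0.02) and D1810Y (0.03) were not called. The mutants as a whole were higher than wild-type DICER1 by 0.15 (adjusted p = 0.00824), a change of 0.05 with the ENvA arrays alone (adjusted p = 0.564).

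Ago3 read 9.28, 9.04 and 9.26 with the eGFP vector and 8.97, 9.11 and 8.98 in the Dicer-null line. The groups overlapped, and the change of 0.18 (adjusted p = 0.0768) passed the threshold without eGFP array 2 (0.25, adjusted p = 0.017). Wild-type DICER1 had a lowest value of 8.73, a median of 8.95 and a highest of 9.05, and was lower than the eGFP vector (-0.27, SE 0.0753, adjusted p = 0.00359). The Dicer-null line was higher than the Dicer wild-type line, which read 8.77 and 8.79 (change 0.24, adjusted p = 0.0268). The call was lost without array 2 of the Dicer-null line or either array of the Dicer wild-type line (adjusted p between 0.0864 and 0.11). The mutants as a whole were -0.11 from the eGFP vector (adjusted p = 0.201), which passed without eGFP array 2 (-0.19, adjusted p = 0.0449) and with the ENvA and untransduced arrays alone (-0.22, adjusted p = 0.00972).

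Ago4, the last Argonaute, had group means between 5.81 in D1709A and 6.27 in the Dicer-null line, all below 6.42, and its 28 arrays lay between 5.75 and 6.33. It was not among the 9 tested genes. Every group overlapped its neighbour in the order of means, but not every group further away. The Dicer-null arrays (6.24 to 6.30) lay above the eGFP arrays (5.76 to 6.08), and wild-type DICER1 (6.07 to 6.26) above D1709A (5.75 to 5.90). In the limma fit without the filter the eGFP vector was -0.35 from the Dicer-null line (adjusted p = 0.0033). D1709A was -0.34 from wild-type DICER1 (adjusted p = 0.00113), which was 0.24 from the eGFP vector (adjusted p = 0.0239). Other comparisons had adjusted p of 0.0718 or more.

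Tarbp2, a double-stranded RNA-binding partner of Dicer, was higher with the eGFP vector than in the Dicer-null line and higher in several mutants than with wild-type DICER1. D1810Y read 9.89, 9.80 and 9.79 and stood apart from every other group. E1705K read 9.56, 9.60 and 9.61, D1709A read 9.73, 9.68, 9.61 and 9.25, D1709N read 9.52 on both arrays, and E1813Q read 9.20 and 9.28. Wild-type DICER1 had a lowest value of 9.11, a median of 9.22 and a highest of 9.59 (array 4). The changes from wild-type DICER1 were 0.55 for D1810Y (SE 0.0942, adjusted p = 2.12e-05), 0.32 for E1705K (adjusted p = 0.00696) and 0.30 for D1709A (adjusted p = 0.0068). D1709N had 0.25 (adjusted p = 0.112), which passed without wild-type DICER1 array 4 (adjusted p = 0.0372), and E1813Q had -0.03. The mutants as a whole were higher than wild-type DICER1 by 0.28 (SE 0.0612, adjusted p = 0.000356).

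In the other groups, Tarbp2 read 9.54, 9.45 and 9.49 with the eGFP vector, against 8.99, 9.14 and 8.98 in the Dicer-null line. These groups did not overlap (change 0.46, SE 0.101, adjusted p = 0.000458). The Dicer wild-type line read 8.98 and 8.84, and the Dicer-null line was not called against it (0.13, adjusted p = 0.363), although it was without array set 3 (adjusted p = 0.047). Wild-type DICER1 was higher than the Dicer wild-type line (0.36, adjusted p = 0.0056), a call lost without array 2 of that line (0.29, adjusted p = 0.0936). It was lower than the eGFP vector by a small margin (-0.22, adjusted p = 0.0446). That call was lost without any of the 3 eGFP arrays or any of wild-type DICER1 arrays 1, 2, 3, 5 and 6 (-0.24 to -0.17, adjusted p between 0.0502 and 0.146) and with the array set as a block (adjusted p = 0.0771). The second Tarbp2 probe set, at a mean of 8.55, had the same sign in these comparisons, with 0.75 for the eGFP vector against the Dicer-null line, -0.30 for wild-type DICER1 against the eGFP vector and 0.58 for D1810Y against wild-type DICER1. For E1813Q it gave -0.28, against -0.03 on the first probe set, and between the Dicer-null and Dicer wild-type lines it gave -0.01, against 0.13 on the first.

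Prkra, the other double-stranded RNA-binding partner, had wider spread between arrays, with a pooled standard deviation of 0.132 within groups. E1813Q read 8.05 and 8.04, above the highest wild-type DICER1 array (7.87, with a lowest of 7.48 and a median of 7.68), and the change was 0.37 (SE 0.127, adjusted p = 0.0229). It was lost without E1813Q array 1 or 2 or wild-type DICER1 array 6 (0.28 to 0.38, adjusted p between 0.0746 and 0.188). D1810Y read 8.11, 7.80 and 7.84 and overlapped wild-type DICER1, and its call (0.24, adjusted p = 0.0401) was lost without D1810Y array 1 or wild-type DICER1 array 2, 3 or 4 (0.14 to 0.25, adjusted p between 0.0553 and 0.284) and with the array set as a block (adjusted p = 0.0733). D1709N (0.20), D1709A (0.05) and E1705K (-0.07) were not called. The mean of the mutants was higher by 0.16 (adjusted p = 0.035). This call was lost without any of 7 single arrays: D1709N array 1, E1705K array 3, D1810Y array 1, E1813Q array 1 and wild-type DICER1 arrays 3, 4 and 6 (0.12 to 0.16, adjusted p between 0.0507 and 0.165). It was also lost with the ENvA and untransduced arrays alone (0.07, adjusted p = 0.463), without array set 3 (0.11, adjusted p = 0.11) and with the array set as a block (adjusted p = 0.0517).

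With the eGFP vector Prkra read 7.96, 7.72 and 8.11, against 7.64, 7.70 and 7.65 in the Dicer-null line. The change was 0.27 (adjusted p = 0.0348), lost without any Dicer-null array or without eGFP array 1 or 3 (0.18 to 0.29, adjusted p between 0.0517 and 0.21) and with the array set as a block (adjusted p = 0.0554). Wild-type DICER1 was -0.26 from the eGFP vector (adjusted p = 0.0261), lost without eGFP array 1 or 3 or wild-type DICER1 array 3 or 4 (-0.25 to -0.17, adjusted p between 0.051 and 0.198) and with the array set as a block (adjusted p = 0.0506). Neither the Dicer-null line (0.16, adjusted p = 0.269) nor wild-type DICER1 (0.17, adjusted p = 0.21) was called against the Dicer wild-type line, which read 7.41 and 7.60.

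Drosha, the nuclear nuclease that starts miRNA processing, varied least of the 9 tested genes. Its group means spanned 0.27 on the log2 scale, and it alone missed the F-test over the 9 groups (adjusted p = 0.0514). E1705K read 10.98, 10.98 and 11.04 and D1810Y read 11.04, 10.95 and 11.03, against a lowest of 10.59, a median of 10.71 and a highest of 11.01 (array 4) with wild-type DICER1. Both overlapped wild-type DICER1 through its array 4, and the changes were 0.27 for E1705K (SE 0.0773, adjusted p = 0.0061) and 0.27 for D1810Y (adjusted p = 0.00455). D1709A read 11.04, 11.03, 10.99 and 10.65, and its change of 0.19 (adjusted p = 0.03) was lost without any of its arrays 1 to 3 or of wild-type DICER1 arrays 1 to 3 (0.14 to 0.18, adjusted p between 0.0702 and 0.13). D1709N (0.06) and E1813Q (0.09) were not called. The mutants as a whole were higher than wild-type DICER1 by 0.18 (SE 0.0502, adjusted p = 0.00401).

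Drosha read 10.83, 10.85 and 10.87 in the Dicer-null line, against 10.81 and 10.87 in the Dicer wild-type line (change 0.00, 95% interval from -0.19 to 0.20, adjusted p = 0.97). Wild-type DICER1 was -0.13 from the eGFP vector (adjusted p = 0.166) and -0.11 from the Dicer wild-type line (adjusted p = 0.337). Both passed the threshold without wild-type DICER1 array 4, at -0.22 (adjusted p = 0.00339) and -0.20 (adjusted p = 0.0184).

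Dgcr8, the partner that holds the primary transcript for Drosha, moved in opposite directions among the mutants. E1813Q read 10.14 and 10.17 and D1709N read 10.43 and 10.21, against a lowest of 10.36, a median of 10.43 and a highest of 10.75 (array 4) with wild-type DICER1. E1813Q stood apart below every other group, and its change was -0.32 (SE 0.110, adjusted p = 0.0232). That call was lost without E1813Q array 1 or 2 or wild-type DICER1 array 5 or 6 (-0.34 to -0.29, adjusted p between 0.064 and 0.113). E1705K read 10.71, 10.76 and 10.84 and was called higher (0.30, SE 0.0839, adjusted p = 0.00473). D1810Y read 10.61, 10.69 and 10.77 and was called higher (0.22, adjusted p = 0.0333), which was lost without D1810Y array 2 or 3 or wild-type DICER1 array 1, 2 or 3 (0.17 to 0.22, adjusted p between 0.0702 and 0.141) and with the array set as a block (adjusted p = 0.0613). D1709N (-0.15) and D1709A (0.03) were not called, and the mean of the mutants was 0.01 from wild-type DICER1 (adjusted p = 0.847). That mean joins changes of opposite sign, and it was called higher with the ENvA and untransduced arrays alone (0.18, adjusted p = 0.0282) and without array set 3 (0.09, adjusted p = 0.013).

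The Dicer-null line read 10.70, 10.69 and 10.63 for Dgcr8, against 10.39 and 10.44 in the Dicer wild-type line. The groups did not overlap (change 0.26, adjusted p = 0.0322), but the call was lost without Dicer-null array 1 or 2 or either array of the Dicer wild-type line (0.23 to 0.28, adjusted p between 0.0668 and 0.152). The eGFP vector read 10.68, 10.68 and 10.59, which overlapped the Dicer-null line. Wild-type DICER1 was -0.18 from the eGFP vector (adjusted p = 0.0716), which passed without wild-type DICER1 array 4 (-0.27, adjusted p = 0.00178).

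Xpo5, the nuclear export receptor of precursor miRNAs, read 10.53, 10.53 and 10.47 in the Dicer-null line, against 10.76 and 10.83 in the Dicer wild-type line. The groups did not overlap, and the change was -0.28 (SE 0.0986, adjusted p = 0.0158). It was lost without array 2 of the Dicer wild-type line (-0.25, adjusted p = 0.112) and when arrays were centred on their medians (-0.20, adjusted p = 0.0953). The eGFP vector read 10.77, 10.71 and 10.74, all above the Dicer-null line (0.23, adjusted p = 0.035), a call lost without any of the 6 arrays (0.21 to 0.24, adjusted p between 0.0513 and 0.101) and with the array set as a block (adjusted p = 0.054).

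Xpo5 in wild-type DICER1 cells had a lowest value of 10.60, a median of 10.65 and a highest of 11.01 (array 4), and was not called against the eGFP vector (-0.03, adjusted p = 0.787). Against the Dicer wild-type line it was -0.08 (adjusted p = 0.478), which passed without wild-type DICER1 array 4 (-0.19, adjusted p = 0.0353). D1810Y read 10.93, 10.93 and 10.95 and was called higher than wild-type DICER1 (0.23, SE 0.0825, adjusted p = 0.023), lost without D1810Y array 1 or 3 or wild-type DICER1 array 1, 2 or 3 (0.19 to 0.23, adjusted p between 0.0509 and 0.0751). D1709A read 10.96, 10.94, 10.94 and 10.55, and its change of 0.14 (adjusted p = 0.156) passed without array 4 of either group (0.24 in both cases, adjusted p = 0.00218 and 0.00219). E1705K read 10.82, 10.81 and 10.85 (0.12, adjusted p = 0.27), which passed without wild-type DICER1 array 4 (0.22, adjusted p = 0.00724). D1709N (0.03) and E1813Q (-0.14) were not called, and the mutants as a whole were 0.07 from wild-type DICER1 (adjusted p = 0.243). That difference passed without array 4 of D1709A (0.09, adjusted p = 0.0436) or of wild-type DICER1 (0.13, adjusted p = 0.0073).

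**Figure D2:**
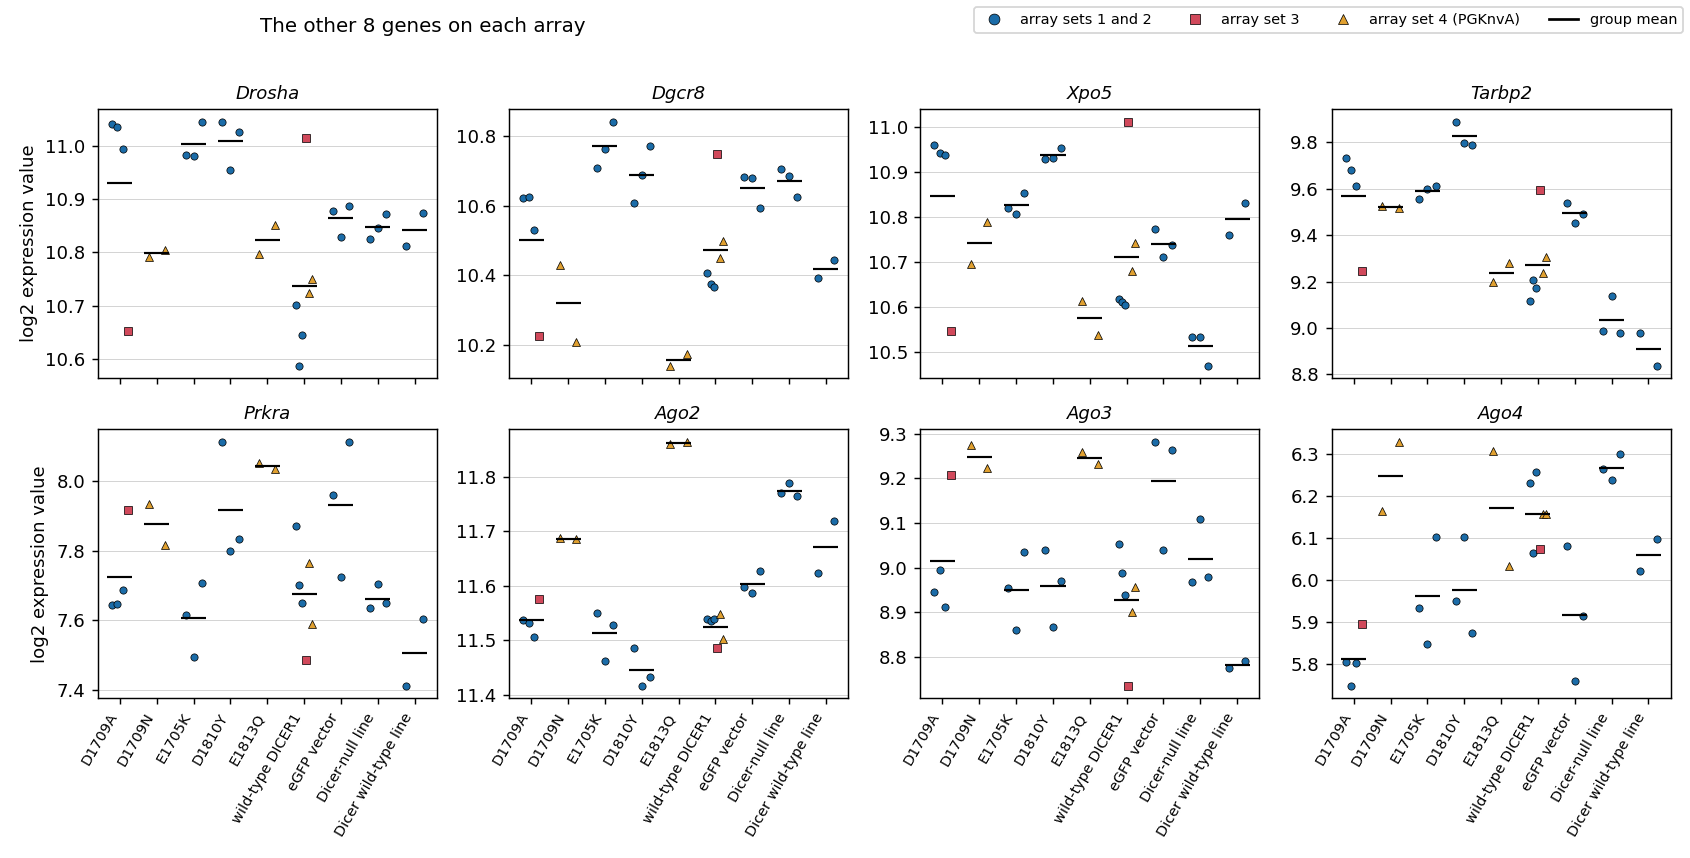
Log2 expression values (y axis, a scale per gene) of the 8 other genes on each array, by group (x axis); points are arrays, marked by array set, and black bars are group means. The red squares, the arrays numbered 4 of D1709A and wild-type DICER1, lie on opposite sides of their groups for Drosha, Dgcr8, Xpo5 and Tarbp2. On its chosen probe set Ago2 is highest in E1813Q at 11.86.

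The 4 main comparisons are set side by side in the plot of changes. Ago1 was the sole gene of the 9 called in all 4, lower in both comparisons with the eGFP vector and higher in the other 2. Drosha was called in 1 of the 4, where the mutants were set against wild-type DICER1.

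**Figure D3:**
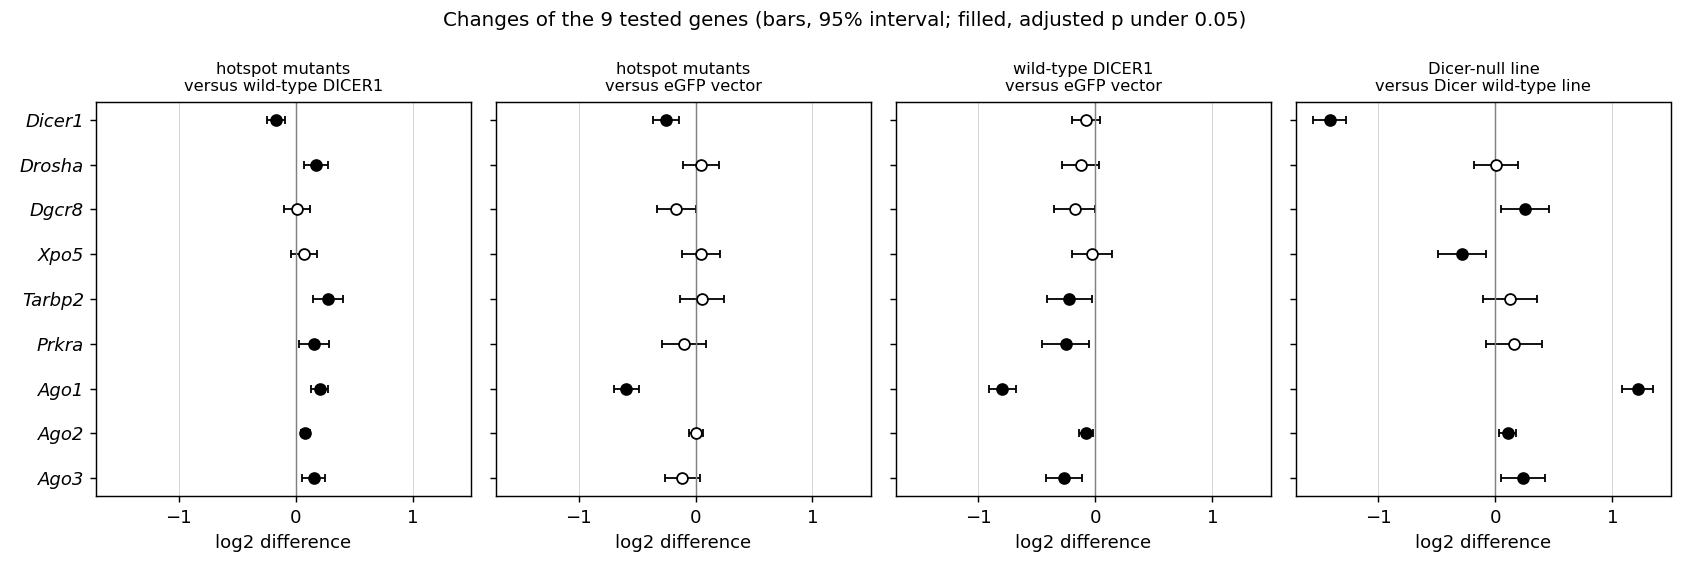
Log2 differences (x axis) of the 9 tested genes (y axis) in 4 comparisons, 1 per panel; bars are 95% intervals from limma, and filled points have an adjusted p under 0.05. Between the parental lines Dicer1 (-1.42) and Ago1 (1.22) lie far from the other 7 genes, and against the eGFP vector Ago1 is lower in the mutants (-0.59) and with wild-type DICER1 (-0.80).

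The mutants were also set against wild-type DICER1 within array sets, with no test. In sets 1 and 2, with 3 arrays against 3, D1709A, E1705K and D1810Y all lay above wild-type DICER1 without overlap in 4 genes. The 3 mutants were set against the same 3 wild-type DICER1 arrays, and the share of all tested genes lying apart in this way was not counted. Drosha was higher by 0.38, 0.36 and 0.36, Dgcr8 by 0.21, 0.39 and 0.31, Xpo5 by 0.34, 0.22 and 0.33, and Tarbp2 by 0.51, 0.42 and 0.66 in the 3 mutants in that order. Dicer1 overlapped in all 3 of them, with differences of at most 0.04, and Ago1 differed by -0.08, -0.08 and 0.07 without overlap. In set 3, with 1 array against 1, D1709A lay below wild-type DICER1 in the same genes, by -0.36 for Drosha, -0.53 for Dgcr8, -0.47 for Xpo5 and -0.35 for Tarbp2. It also lay below for Dicer1 (-0.36), and above for Ago1 (0.37), Ago3 (0.47) and Prkra (0.43). Between sets 1 and 2 and set 3, the sign of the D1709A difference was opposite for 8 of the 9 tested genes and for 6722 of the 13956 tested genes (48.2%). Over these 13956 genes the 2 differences had a Pearson r of 0.094. The labels and files name no run, date or culture for the arrays of set 3.

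Without the 2 arrays of set 3, Xpo5 was called in D1709A (0.34, adjusted p = 4.02e-10) and E1705K (0.22, adjusted p = 1.5e-06), and Dgcr8 in D1709A (0.21, adjusted p = 0.000306), all higher than with wild-type DICER1. Called lower were Xpo5 in E1813Q (-0.14, adjusted p = 0.0055) and Dgcr8 in D1709N (-0.15, adjusted p = 0.0264), and Tarbp2 in D1709N was called higher (0.25, adjusted p = 0.00092). Prkra in D1810Y was no longer called (0.18, adjusted p = 0.0893). Wild-type DICER1 then differed from the eGFP vector in 8 of 9 genes in place of 5, all of them lower in both fits. Calls in that comparison also rose over all 13956 tested genes, from 8307 to 8964 in either direction, and the lower calls alone were not counted there. Added were Drosha (-0.22, adjusted p = 1.06e-06), Dgcr8 (-0.27, adjusted p = 8.38e-06), Xpo5 (-0.13, adjusted p = 0.000929) and Dicer1 (-0.13, adjusted p = 0.0208), and Prkra was no longer called (-0.19, adjusted p = 0.0601).

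In set 4, D1709N and E1813Q in the PGKnvA vector lay above wild-type DICER1 in the same vector without overlap for Ago1, Ago2, Ago3, Prkra and, by 0.06 and 0.09, Drosha, and below it for Dicer1 and Dgcr8. With 2 arrays against 2, values can easily lie apart by chance, and the share of all tested genes that did was not counted. Tarbp2 was 0.25 higher in D1709N and -0.03 in E1813Q. The PGKnvA mutants as a pair were therefore set against the 3 ENvA mutants, each relative to wild-type DICER1, a contrast added after these values were seen, in which 18.0% of tested genes were called. They were higher for Ago1 (0.40, SE 0.0750, adjusted p = 0.000897) and Ago2 (0.28, adjusted p = 6.6e-05) and lower for Dicer1 (-0.32, adjusted p = 0.0074) and Dgcr8 (-0.42, adjusted p = 0.0149). Ago3 had 0.27 (adjusted p = 0.0687). D1709N and D1709A change the same residue, and between them Ago1 was higher by 0.42 (adjusted p = 0.00555) and Dicer1 lower (-0.31, adjusted p = 0.0481) in D1709N, where 5.06% of tested genes were called. No mutant was profiled in both vectors, and the PGKnvA arrays were those of array set 4. The mutation, the vector and the array set thus cannot be told apart in these differences.

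**Figure D4:**
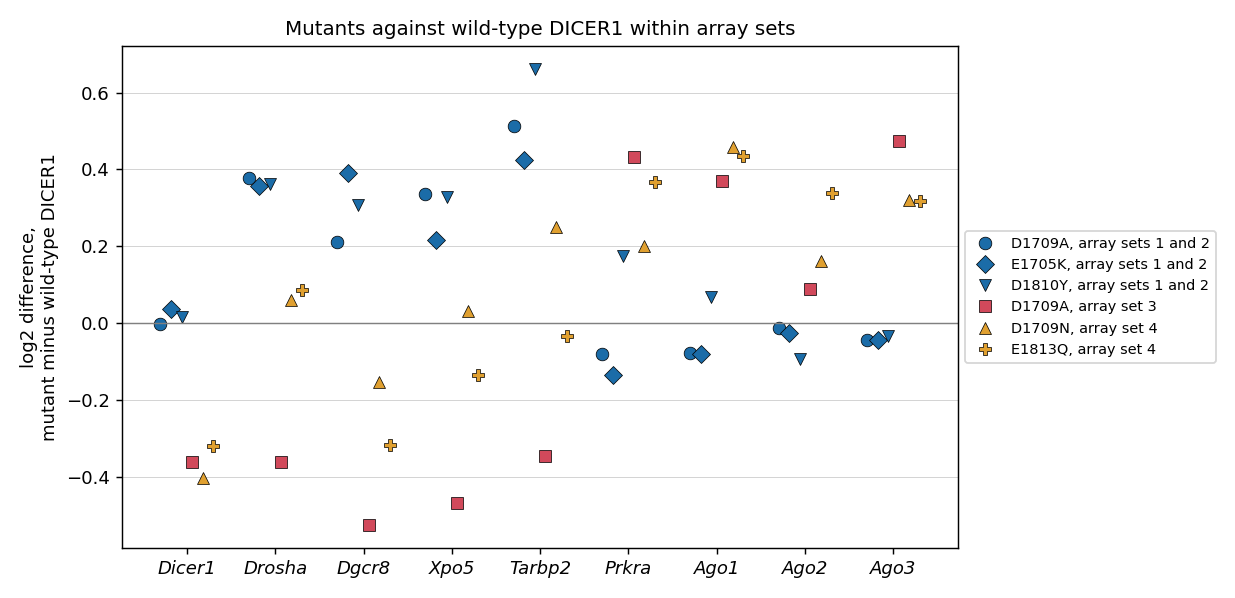
Log2 differences (y axis, mutant minus wild-type DICER1) of the 9 tested genes (x axis) within array sets; each symbol is a mutant in a set, with 3 arrays against 3 in sets 1 and 2, 1 against 1 in set 3 and 2 against 2 in set 4. For Tarbp2 the differences are 0.51, 0.42 and 0.66 in sets 1 and 2, but -0.35 in set 3.

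Markers of other cell types were also called in some of these comparisons. With wild-type DICER1 the list mean of the 8 fibroblast markers was between 7.11 and 7.33 on the 6 arrays, against 6.64 to 6.84 on the 3 eGFP arrays, and 3 of 5 tested markers were higher. Of 5 tested trophoblast markers 4 were higher and none lower, and of 4 tested primitive endoderm markers 2 were higher. In that comparison 30.8% of all tested genes were higher and 28.7% lower. On the mutant arrays the fibroblast list mean was between 6.87 and 7.25, and group means of the 6 trophoblast markers lay between 8.35 and 8.88 over all groups. In the mutants as a whole 5 of 5 tested trophoblast markers were higher than with the eGFP vector, and 3 of 5 were higher than with wild-type DICER1, where 1 was lower. Against wild-type DICER1 the mutants also had 2 of 8 ES cell markers higher and 6 lower, 2 of 5 tested fibroblast markers lower and none higher, and 2 of 4 tested primitive endoderm markers lower and none higher. Of all tested genes, 29.3% were higher and 23.8% lower in the mutants than with the eGFP vector. Against wild-type DICER1 these shares were 32.3% and 27.7%. The marker counts were not tested against the shares, and the part of the markers in the changes of the miRNA genes was not tested.

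The wider pathway was described with a list of 67 other genes that act on primary transcripts, precursors, silencing complexes or target decay, of which 61 were on the array and 59 were tested. Between the Dicer-null and Dicer wild-type lines 16 were higher and 18 lower, where 30.7% of all tested genes were higher and 27.2% lower, and the median change was -0.03 against 0.01 over all tested genes. Tnrc6a, which links Argonaute to deadenylases, was higher by 1.04 (SE 0.0606, adjusted p = 1.36e-13), as were the deadenylases Cnot6l (0.98) and Cnot6 (0.85). Lin28a, which blocks let-7 maturation, was lower (-2.35, SE 0.0952, adjusted p = 1.21e-16), as were Fmr1 (-0.76), which encodes an RNA-binding translational regulator, and the deadenylase Cnot8 (-0.74). By role, 4 of 18 decay genes were higher and 7 lower, and 5 of 18 loading and silencing genes were higher and 4 lower, which was not tested against those shares.

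With wild-type DICER1 25 of the 59 were higher and 17 lower than with the eGFP vector (30.8% and 28.7% of all tested genes), with a median change of 0.04 against 0.02 over all tested genes. Lin28a was higher by 1.65 and its paralog Lin28b lower (-1.01), the decapping enzyme Dcp2 (0.53) and the translin gene Tsn (0.47) were higher, and the RNA helicase gene Mov10 (-0.86) and Cnot6l (-0.81) were lower. In the mutants as a whole 14 were higher and 14 lower than with the eGFP vector (29.3% and 23.8% of all tested genes), including Lin28a (2.22), the RNA-editing enzyme Adarb1 (0.51) and the HSP90 co-chaperone Fkbp5 (0.43) on the higher side and Mov10 (-0.92), Cnot6 (-0.78) and Cnot6l (-0.64) on the lower. The median change was -0.02 against 0.02. Against wild-type DICER1 15 were higher and 26 lower in the mutants (32.3% and 27.7% of all tested genes), with a median change of -0.05 against 0.01. Lin28a (0.58), Lin28b (0.53) and Gemin4 (0.50), a component of the SMN complex, were higher, and Dcp2 (-0.58), the RNase Zc3h12a (-0.45) and Fmr1 (-0.38) were lower. Leaving out array set 3 gave 17 and 20, 26 and 19, 16 and 16, and 18 and 26 in these 4 comparisons. Calls over all 13956 tested genes then rose from 8075 to 8900, 8307 to 8964, 7407 to 8311 and 8383 to 9030.

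Among the 10 genes themselves, Pearson correlations over the 9 group means, which share the array scale and the arrays, ranged from -0.85 for Ago2 with Xpo5 to 0.83 for Ago3 with Prkra. Drosha and Dgcr8 had 0.63, and Xpo5 and Tarbp2 had 0.66. Among the other tested genes, the pattern of Dicer1 over the 9 groups was most like that of Siah1a (r = 0.979), Klf12 (0.974), Nop53 (0.973), Rps10 (0.971) and Naa30 (0.963), each of which was highest in the Dicer wild-type line. The single most similar gene was Golga2 for Ago1 (0.979), Ikbke for Ago3 (0.985), Slc45a3 for Ago2 (0.963) and Svopl for Ago4 (0.915). It was Ddx47 for Tarbp2 (0.987), Mospd4 for Prkra (0.934), Rassf3 for Drosha (0.964), Prss36 for Dgcr8 (0.973) and Tstd2 for Xpo5 (0.967).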

How the data were processed

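Total RNA of mouse ES cells was profiled on 28 Affymetrix Mouse Gene ST arrays. The authors deposited 1 log2 value for each probe set and array. The submitters' processing notes name RMA, which background-corrects, quantile-normalises and combines probe signals, and Partek 6.6, without saying what each did. The table held 35556 probe sets, of which 21789 had 1 gene symbol, 1621 several and 12146 none in the platform annotation. Probe sets with 1 symbol gave 19938 genes, with the probe set of highest mean standing for each, and 19856 matched the GRCm38.p6 reference table by identifier with 0 symbols changed. Genes with a mean below the 30th percentile (6.42) were left out, which left 13956.

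All arrays entered 1 model in limma 3.58.1 (R 4.3.3) with 9 group coefficients, a PGKnvA vector term and trend-moderated variances, on 18 residual degrees of freedom. Tests were two-sided, with Benjamini-Hochberg adjustment over the 13956 genes. The mutant contrast weighted the 5 mutants equally. The number of arrays limits the precision. The procedure was tested on simulated data, with arrays drawn independently of each other. They lacked the exact relations of the real arrays, so that test cannot show how reliable the p-values are here. Tables and figures used Python 3.11.15, numpy 2.4.6, pandas 2.3.3 and matplotlib 3.10.9.

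The 10 genes, the lists and the tests were chosen with earlier results of these data known. The text names all 10 genes, and up to 3 called genes each way from the wider list in each of 4 comparisons. It also names the 5 genes most correlated with Dicer1 over the 9 group means, and the 1 most correlated with each other member, leaving out predicted genes. The array sets, the fits that use them and the contrast between vectors were chosen after seeing the data. Alternatives were no filter, centring arrays on their medians, the mean of all probe sets of a gene, no trend, no vector term, ENvA and untransduced arrays only, the replicate number or the array set as a block, and leaving out arrays. Over 88 pairs of same-numbered arrays of different groups, deviations from group means correlated between -1.00 and 0.68, and 20 pairs were over 0.1. The deviations sum to 0 within each array set, which forces negative correlations, so these values cannot show whether replicate numbers pair the arrays.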

Additional observations from a re-analysis of the deposited data

Results flagged for a closer look

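Of 20 sets of values tested (10 genes in the 2 groups of 4 to 10 arrays), 6 held an array whose gap to the others was large by Dixon's criterion, where chance gives about 1 in 20. All 6 were the array numbered 4 of D1709A or of wild-type DICER1. In D1709A, array 4 read 10.65 for Drosha, while the other arrays lay between 10.99 and 11.04. It read 10.55 for Xpo5, while the others lay between 10.94 and 10.96, and 7.92 for Prkra, while the others lay between 7.64 and 7.69. In wild-type DICER1, array 4 read 9.44 for Dicer1, while the others lay between 9.26 and 9.32. It read 10.75 for Dgcr8, while the others lay between 10.36 and 10.50, and 11.01 for Xpo5, while the others lay between 10.60 and 10.74. The deviations of these 2 arrays from their group means sum to 0 within 1.08e-04, so a far value in 1 of them comes with an opposite deviation in the other.

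The difference from wild-type DICER1 was not the same in the PGKnvA mutants (D1709N and E1813Q) as in the ENvA mutants (D1709A, E1705K and D1810Y) for 4 genes, tested as a contrast in limma and chosen after the values were seen. The difference between the 2 sets of mutants was 0.40 for Ago1 (adjusted p = 0.000897), 0.28 for Ago2 (adjusted p = 6.6e-05), -0.32 for Dicer1 (adjusted p = 0.0074) and -0.42 for Dgcr8 (adjusted p = 0.0149). The second Ago2 probe set gave 0.07 for D1709N and 0.03 for E1813Q, against -0.26, -0.18 and -0.25 for D1709A, E1705K and D1810Y.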

How the results depend on the processing

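The changes of Dicer1 and Ago1 between the parental lines and of Ago1 between wild-type DICER1 and the eGFP vector kept their direction and call under every alternative run. Among the alternatives, using no vector term or the array set as a block could hardly move a change, and bears on the calls alone. Counts of called genes among the 9 tested moved by over 1.5 times as follows, with the count over all 13956 tested genes in brackets. For the eGFP vector against the Dicer-null line the count was 5 (6645), and 3 with centred arrays (7049) and 3 with the array set as a block (6174). For the mutants against the eGFP vector it was 2 (7407), and 4 with ENvA and untransduced arrays only (7893), and against wild-type DICER1 it was 7 (8383), and 3 with those arrays (7849). For wild-type DICER1 against the eGFP vector it was 5 (8307), and 3 with the replicate block (7766), 2 with the array set as a block (7695) and 8 without array set 3 (8964). Against the Dicer wild-type line it was 3 (7386), and 8 without array set 3 (8056). For D1709A it was 2 (6391), and 1 with the replicate block (5912) and 4 without array set 3 (7720), and for D1810Y it was 6 (7501), and 2 with the replicate block (6866) and 3 with the array set as a block (6813).

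Leaving out 1 array at a time gave 1 to 3 calls for D1709A, 3 to 5 for D1709N, 3 to 4 for E1705K, 3 to 6 for D1810Y and 3 to 6 for E1813Q. It gave 2 to 3 for the mutants against the eGFP vector and 6 to 8 against wild-type DICER1. It gave 2 to 5 for wild-type DICER1 against the eGFP vector, 1 to 7 against the Dicer wild-type line, 3 to 5 for the eGFP vector, 3 to 6 for the Dicer-null line and 8 to 9 for the F-test.

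Ago2 reversed with the mean of its 2 probe sets: -0.0208 for the Dicer-null line against the Dicer wild-type line, 0.0584 for wild-type DICER1 against the eGFP vector, and -0.0175 for the mutants and -0.13 for D1709A against wild-type DICER1. Of these only D1709A was then called (adjusted p = 0.0075). E1705K was also called lower (-0.10, adjusted p = 0.048), and the D1709N call was lost (0.11, adjusted p = 0.091). With ENvA and untransduced arrays only Ago2 reversed to -0.11 for the mutants against the eGFP vector (adjusted p = 0.00157) and -0.0263 against wild-type DICER1, and there the Prkra change was 0.07 and the Dgcr8 change 0.18, which was then called. These arrays give no value for D1709N or E1813Q. The replicate block removed 10 of the gene calls and added none, and could not be fitted with the vector term for D1709N, E1813Q or the mutants as a whole. Without that term it lost 1, Prkra in the mutants against wild-type DICER1 (0.16, adjusted p = 0.0977). The array set as a block lost 9 and added none. It left the changes almost as they were, because deviations from group means sum to 0 within each set. Its residual degrees of freedom were 16 in place of 18, and it is no check on differences between the sets. Leaving out array set 3 added 21 and lost 3. The cause of the shifts under the other alternatives was not tested.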
